A study of Mus musculus with 2 samples.

Results

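The p53 pathway genes described here are Trp53, Mdm2, Trp53inp1, Btg2, Ccng1, Ccng2, Sesn1, Zmat3, Phlda3 and Gadd45a, 10 genes taken by symbol from the 54532 genes of the deposited table. All 10 were found at a single row each, and all passed the filter of at least 1 CPM (counts scaled to a library total of 1000000) in 1 or both libraries, a filter that 12273 genes passed. The study sequenced messenger RNA from CMT167R cells, a derivative of the mouse lung carcinoma line CMT167 that the labels describe as resistant to anti-PD1, an antibody that blocks an inhibitory receptor on T cells. The PKCi group was treated with 50 nM of a compound called PKCi for 24 h, and the CON group was untreated. There was 1 library in each group, with 16071153 gene counts for PKCi and 16090186 for CON. The labels say neither which compound PKCi is nor whether CMT167R is 1 clone. With 1 library per group the differences below have no replicate check and no test, so they compare these libraries, and each 95% interval covers counting error only.

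The transcription factor p53, encoded by Trp53, is held at a low protein level by Mdm2, a ubiquitin ligase whose own gene p53 activates, which closes a negative feedback loop. When DNA damage or another stress frees p53 from this control, it switches on genes that slow the cell cycle, repair DNA, restrain growth signalling or start apoptosis. The regulation of p53 itself acts largely on the protein, which RNA counts do not measure. Several genes of the set also answer to other inputs, among them Ccng2, which FOXO transcription factors activate when insulin and AKT signalling is low.

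The 10 genes did not move as a block between the libraries. The PKCi library held at least 2-fold more Ccng2, Trp53inp1 and Btg2 RNA than the untreated library, and Ccng1 RNA was lower by more than 2-fold. The other 6 stayed within 2-fold, with Mdm2, Gadd45a and Trp53 above their untreated level and Zmat3, Phlda3 and Sesn1 below it. A gene was counted at this size when log2((PKCi + 1)/(CON + 1)), in CPM, reached 1 in either direction. On that scale 3 of the 10 genes passed 2-fold upwards with PKCi, as did 6.53% of the 12273 measured genes, and 1 of the 10 passed it downwards, as did 5.13%. The median log2 ratio of the 10 was 0.34, with 6 above 0 and 4 below, against a median of −0.01 over all measured genes. The summed level of the 10 genes was 1532 CPM in the PKCi library and 1376 CPM in the CON library. In bulk RNA, fewer cells that express a gene and less of its RNA per cell cannot be told apart.

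**Figure D1:**
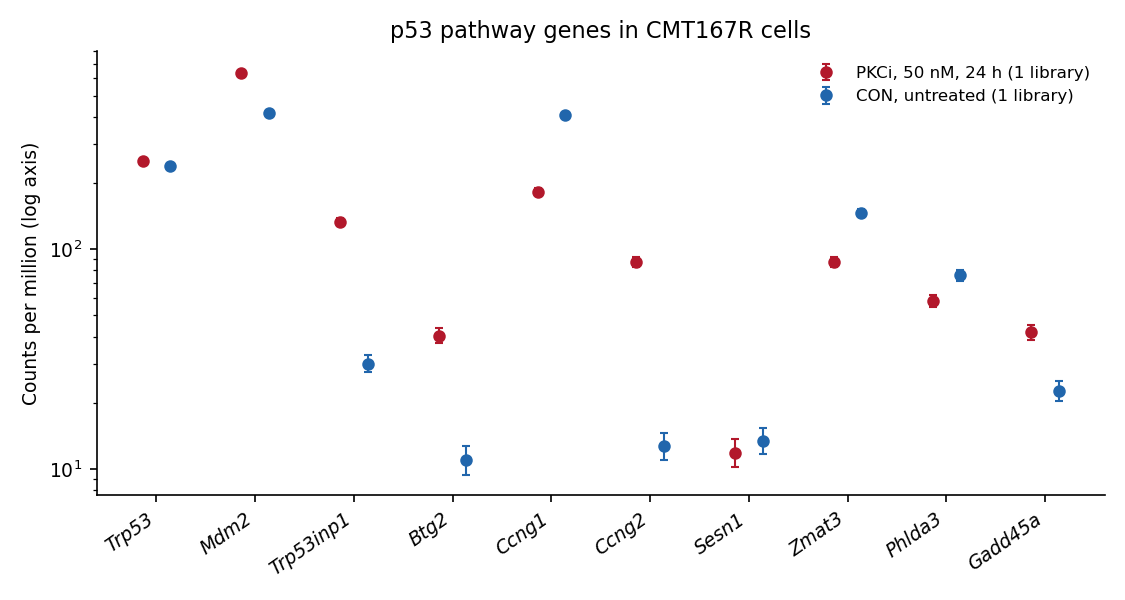
Level of each p53 pathway gene in CPM (log axis), with the PKCi library (red) left of the CON library (blue) and bars for the exact Poisson 95% interval, which is counting error only. Ccng2 stood at 87.8 CPM with PKCi and 12.7 CPM in CON, while Ccng1 stood at 182 CPM with PKCi and 406 CPM in CON.

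Cells of the labelled kind express epithelial keratins, and the 6 epithelial markers summed to 2057 CPM in the PKCi library and 1685 CPM in CON, nearly all from Krt8 and Krt18. Krt7 was at 29.8 CPM with PKCi and 43.5 CPM in CON, the 1 marker of the 6 that was lower with PKCi. Epcam was at 6.28 CPM with PKCi and 3.48 CPM in CON, and Cdh1 at 3.36 CPM with PKCi and 2.92 CPM in CON. All 4 lung epithelial markers (Nkx2-1, Sftpc, Sftpb and Scgb1a1) were at 0 in both libraries. One protocol in the labels speaks of retinas, but the 6 retinal markers summed to 0.373 CPM with PKCi and 0.249 CPM in CON, with 3 of them at 0 in both. The 8 leukocyte markers summed to 6.72 CPM with PKCi and 10.6 CPM in CON, with 5 at 0 in both, Ptprc among them. The 5 fibroblast markers summed to 13.9 CPM with PKCi and 12.5 CPM in CON, and the 4 endothelial markers to 1.18 CPM with PKCi and 0.621 CPM in CON. Mitochondrially encoded genes took 2.90% of counts with PKCi and 2.50% in CON. The part that these shares play in the results was not tested.

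Trp53 differed little between the libraries, while Mdm2, which holds p53 in check, was higher with PKCi. Trp53 had 4068 counts in the PKCi library and 3831 in CON, or 253 CPM with PKCi against 238 CPM in CON. The fold was 1.06 (95% interval 1.02 to 1.11), the smallest difference of the 10 genes on the log2 scale. Mdm2 had 10212 counts with PKCi and 6737 in CON, or 635 CPM with PKCi against 419 CPM in CON. Mdm2 was thus higher with PKCi by 1.52-fold (95% interval 1.47 to 1.57). Its relative Mdm4, which binds p53 and blocks its activation domain, was at 101 CPM with PKCi and 88.3 CPM in CON, 1.14-fold higher (95% interval 1.06 to 1.23).

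Within a library, the ratio of 2 genes per length does not depend on how the library was scaled. Levels per length are given as TPM, which is the count divided by the listed gene length and scaled to a total of 1000000 per library. Mdm2 had 2.0 times the TPM of Trp53 in the PKCi library and 1.40 times in CON, so the ratio was 1.43-fold higher with PKCi (95% counting interval 1.35 to 1.51). Mdm2 had 18.4 times the TPM of Mdm4 with PKCi and 13.8 times in CON. Trp63, the p53 relative that directs epithelial stem cell programmes, was at 9.21 CPM with PKCi and 22.6 CPM in CON, 2.46-fold lower (95% interval 2.02 to 2.99), and Trp73 had no counts in either library, which allows up to 0.187 CPM. Cdkn2a, whose ARF product inhibits Mdm2, had 13 counts in each library, or 0.809 CPM with PKCi and 0.808 CPM in CON.

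Mdm2 (ENSMUSG00000020184) is a minus-strand gene of chromosome 10, 117688875 to 117710758, and Trp53 (ENSMUSG00000059552) is a plus-strand gene of chromosome 11, 69580359 to 69591873, in the GRCm38 coordinates of the deposited table. RefSeq promoter windows (GRCm38.p6, 250 bases before to 50 after a RefSeq start) were given for 8 of the 10 genes. Trp53inp1 and Zmat3 were not among them. A RefSeq start need not equal the start in the deposited table, so a window can overlap a listed gene span or stop short of it. Positions before the start are counted from the RefSeq start. A half-site of the p53 consensus, a 10-base motif that reads the same on both strands, was found in the windows of Trp53, Mdm2, Ccng1, Gadd45a and Sesn1, that is in 5 of the 8 genes and 5 of their 9 windows (Sesn1 has 2), against 8.36% of all 32851 windows. A pair of half-sites with up to 13 bases between them was in 0 of the 8 genes and in 0.0731% of all windows. With so low a share over all windows, its absence from these few says little. Only exact matches inside the windows were counted, so sites with a mismatch or elsewhere in the genes were not searched. The upstream 250 bases of these genes are shown because they belong to the inhibitor and to the factor itself, 5′ to 3′ on the gene's strand, with half-sites in capitals:
Mdm2 promoter, chr10:117710759-117711008 (minus strand): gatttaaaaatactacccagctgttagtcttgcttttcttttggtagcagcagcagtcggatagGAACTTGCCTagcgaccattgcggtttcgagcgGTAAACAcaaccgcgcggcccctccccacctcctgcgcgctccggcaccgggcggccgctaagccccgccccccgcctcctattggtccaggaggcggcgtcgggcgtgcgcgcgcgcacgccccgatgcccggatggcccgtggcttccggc
Trp53 promoter, chr11:69580109-69580358 (plus strand): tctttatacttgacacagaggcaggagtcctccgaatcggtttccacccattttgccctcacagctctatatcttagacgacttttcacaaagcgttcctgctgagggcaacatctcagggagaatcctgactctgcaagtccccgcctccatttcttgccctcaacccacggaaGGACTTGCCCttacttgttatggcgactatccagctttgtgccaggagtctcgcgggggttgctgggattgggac
In the Mdm2 window a forkhead heptamer (GTAAACA, or TGTTTAC on the other strand) is also in capitals. It follows the half-site GAACTTGCCT without touching it. The half-site begins 186 bases before the start in Mdm2 and 75 bases before it in Trp53. A match is a description of these letters, and it does not show that a factor binds there.

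The 2 cyclin G genes differed in opposite directions. Ccng1 encodes cyclin G1, a p53-induced protein that recruits a phosphatase to Mdm2 and takes part in the feedback loop. Ccng2 encodes cyclin G2, an unconventional cyclin that accumulates in cells leaving the cycle and opposes proliferation. Ccng1 had 2929 counts with PKCi and 6539 in CON, or 182 CPM with PKCi against 406 CPM in CON, 2.23-fold lower with PKCi (95% interval 2.13 to 2.33). Ccng2 had 1411 counts with PKCi and 204 in CON, or 87.8 CPM with PKCi against 12.7 CPM in CON, 6.92-fold higher (95% interval 5.98 to 8.06). By log2 ratio, Ccng2 held rank 32 from the top of the 12273 measured genes, and Ccng1 held rank 396 from the bottom.

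Per length, Ccng1 exceeded Ccng2 3.23-fold in the PKCi library and 49.8-fold in CON, so the ratio of Ccng1 to Ccng2 was 15.4-fold lower with PKCi (95% counting interval 13.2 to 18). Cyclin I (Ccni), a related cyclin that is abundant in postmitotic tissues, was at 245 CPM with PKCi and 158 CPM in CON, 1.55-fold higher (95% interval 1.48 to 1.63). Of the summed TPM of these 3 cyclins, Ccng1 made up 36.5% in the PKCi library and 69.8% in CON, Ccng2 11.3% with PKCi and 1.40% in CON, and Ccni 52.1% with PKCi and 28.8% in CON. Their sum itself was 464 TPM with PKCi and 538 TPM in CON. Ccni thus took the first place among the 3 with PKCi, a place that Ccng1 held in CON.

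Ccng1 (ENSMUSG00000020326) is a minus-strand gene of chromosome 11, 40748552 to 40755311, and Ccng2 (ENSMUSG00000029385) a plus-strand gene of chromosome 5, 93267257 to 93276231. A single pseudogene named after cyclin G1 stands in the deposited table, with 0 counts in both libraries. The bases before the RefSeq starts of this pair are shown because the genes differed in opposite directions. All of the Ccng2 bases, and some of the Ccng1 bases, lie inside the gene spans given above:
Ccng1 promoter, chr11:40755287-40755536 (minus strand): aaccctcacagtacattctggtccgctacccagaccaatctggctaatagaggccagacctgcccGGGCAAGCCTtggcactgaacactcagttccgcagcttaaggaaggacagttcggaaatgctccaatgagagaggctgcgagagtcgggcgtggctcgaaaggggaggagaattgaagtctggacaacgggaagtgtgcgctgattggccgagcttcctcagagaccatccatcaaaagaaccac
Ccng2 promoter, chr5:93267323-93267572 (plus strand): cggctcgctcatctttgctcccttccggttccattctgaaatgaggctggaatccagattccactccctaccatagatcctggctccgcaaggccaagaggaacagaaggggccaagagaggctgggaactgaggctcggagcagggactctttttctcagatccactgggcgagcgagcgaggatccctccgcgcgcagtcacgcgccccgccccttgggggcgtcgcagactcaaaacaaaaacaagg
The capitals in the Ccng1 window mark the half-site GGGCAAGCCT, which begins 185 bases before the start. The Ccng2 window held neither the half-site nor the forkhead heptamer, which says only that those letters are not in this stretch. The bases before the listed start of Ccng2 were not searched. The heptamer was in 3.65% of all windows and in 2 of the 9 windows here, those of Mdm2 and of Sesn1.

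**Figure D2:**
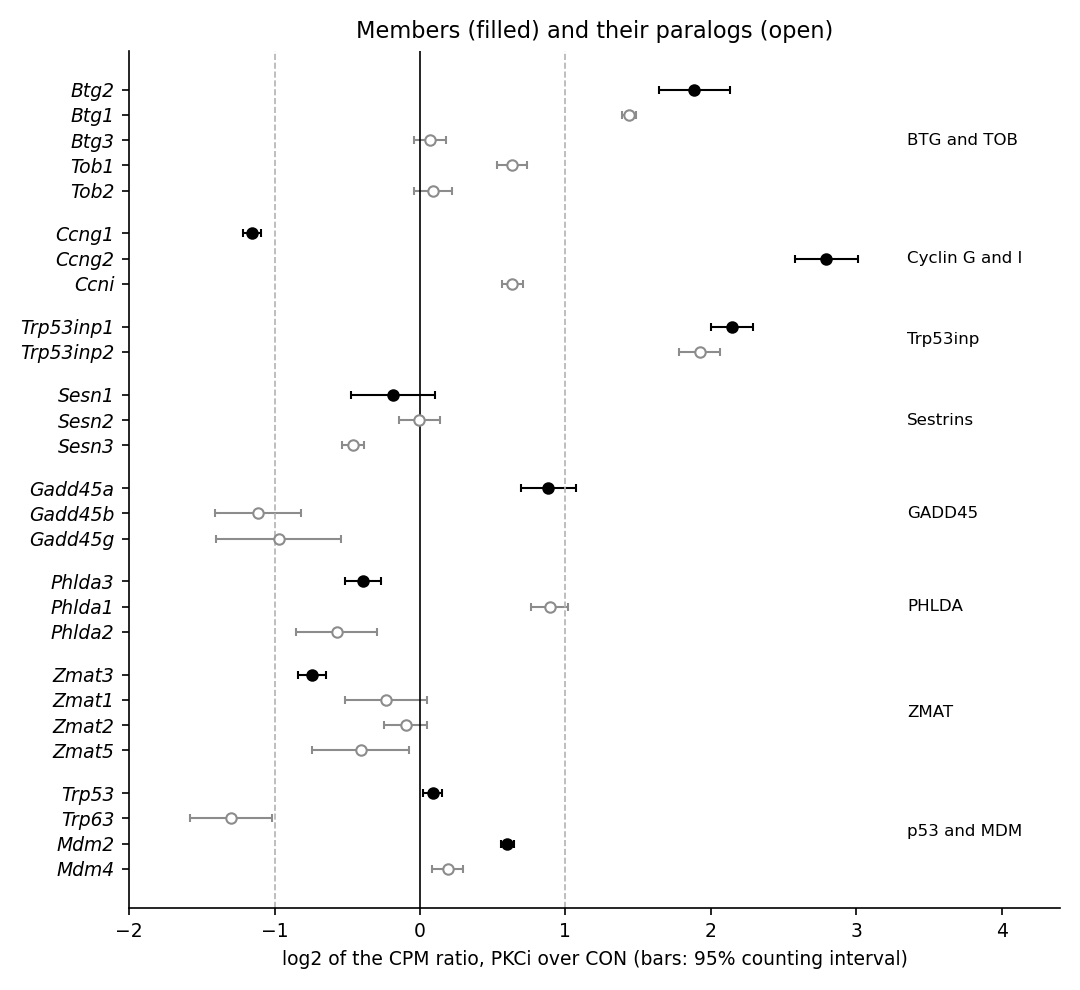
The log2 of the plain CPM ratio, PKCi over CON, for the 10 genes (filled) and their measured paralogs (open), by family, with 95% counting intervals and dashed lines at 2-fold. Ccng1 and Ccng2 lie on opposite sides of 0, as do Gadd45a and its relatives Gadd45b and Gadd45g, while Trp53inp1 and Trp53inp2 lie close together on the right.

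Trp53inp1 encodes a stress-induced nuclear protein that cooperates with kinases that phosphorylate p53 and that also takes part in autophagy. It had 2145 counts with PKCi and 485 in CON, or 133 CPM with PKCi against 30.1 CPM in CON, 4.43-fold higher (95% interval 4.01 to 4.90; rank 106 from the top). Its paralog Trp53inp2, an autophagy scaffold, was at 122 CPM with PKCi and 32.1 CPM in CON, 3.79-fold higher (95% interval 3.44 to 4.19). Both genes of this pair were therefore higher with PKCi, and Trp53inp1 made up 47.1% of their summed TPM with PKCi and 43.2% in CON. Trp53inp1 (ENSMUSG00000028211) is a plus-strand gene of chromosome 4, 11156431 to 11174379.

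Btg2 is an antiproliferative protein of the BTG and TOB family, which binds the CCR4-NOT deadenylase and speeds the removal of poly(A) tails. It had 649 counts with PKCi and 176 in CON, or 40.4 CPM with PKCi against 10.9 CPM in CON, 3.69-fold higher (95% interval 3.12 to 4.39; rank 166 from the top). Btg1, its nearest relative, was at 913 CPM with PKCi and 337 CPM in CON, 2.71-fold higher (95% interval 2.63 to 2.79). Tob1 was 1.55-fold higher (95% interval 1.44 to 1.66), at 122 CPM with PKCi and 78.8 CPM in CON. For Btg3 (84.3 CPM with PKCi and 80.2 CPM in CON) and Tob2 (63.7 CPM with PKCi and 59.9 CPM in CON) the interval of the fold held 1, so a difference was not detectable at this depth. Btg4, a gene of oocytes, had 0 counts with PKCi and 2 in CON.

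The summed TPM of Btg1, Btg2, Btg3, Tob1 and Tob2 was 888 with PKCi and 426 in CON. Btg1 made up 63.7% of it with PKCi and 48.7% in CON, and Btg2 5.42% with PKCi and 3.04% in CON. Per length, Btg1 exceeded Btg2 11.8-fold with PKCi and 16-fold in CON. Btg2 (ENSMUSG00000020423) is a minus-strand gene of chromosome 1, 134075170 to 134079120. Its upstream window is shown as that of a gene higher with PKCi. It held no exact match to the p53 half-site or the forkhead heptamer, and near matches were not searched:
Btg2 promoter, chr1:134079156-134079405 (minus strand): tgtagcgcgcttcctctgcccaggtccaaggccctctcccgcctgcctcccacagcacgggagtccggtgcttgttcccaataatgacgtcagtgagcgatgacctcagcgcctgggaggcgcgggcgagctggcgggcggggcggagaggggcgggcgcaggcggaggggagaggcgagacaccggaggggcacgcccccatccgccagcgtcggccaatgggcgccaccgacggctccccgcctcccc

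Gadd45a encodes a stress sensor that binds PCNA and p21 and activates the p38 kinase pathway. It had 672 counts with PKCi and 365 in CON, or 41.8 CPM with PKCi against 22.7 CPM in CON, 1.84-fold higher (95% interval 1.62 to 2.10). Its relatives lay on the other side of 0. Gadd45b was at 8.77 CPM with PKCi and 19.0 CPM in CON, 2.16-fold lower (95% interval 1.76 to 2.66), and Gadd45g at 4.42 CPM with PKCi and 8.64 CPM in CON, 1.96-fold lower (95% interval 1.46 to 2.64). The summed TPM of the 3 genes was 108 with PKCi and 104 in CON, of which Gadd45a made up 71.8% with PKCi and 40.0% in CON. The TPM ratio of Gadd45a to Gadd45b was 4.29 with PKCi and 1.08 in CON, 3.98-fold higher with PKCi (95% counting interval 3.14 to 5.05).

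Gadd45a (ENSMUSG00000036390) is a minus-strand gene of chromosome 6, 67035096 to 67037457. It shares 337 exon bases with the noncoding gene E230016M11Rik on the opposite strand, which had 18 counts with PKCi and 14 in CON. Without a stated strand setting, reads of the pair in that stretch cannot be told apart, although the partner's counts are few. The RefSeq start of Gadd45a lies inside the gene span given above, and so does the half-site in its window. The window is shown for the half-site nearest to a RefSeq start among these genes. That half-site is in capitals, from 40 bases before the RefSeq start:
Gadd45a promoter, chr6:67037408-67037657 (minus strand): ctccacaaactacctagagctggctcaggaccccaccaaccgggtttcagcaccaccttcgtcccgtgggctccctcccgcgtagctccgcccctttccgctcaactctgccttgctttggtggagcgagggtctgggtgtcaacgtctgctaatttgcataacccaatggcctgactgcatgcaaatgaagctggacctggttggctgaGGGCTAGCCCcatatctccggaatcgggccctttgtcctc

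**Figure D3:**
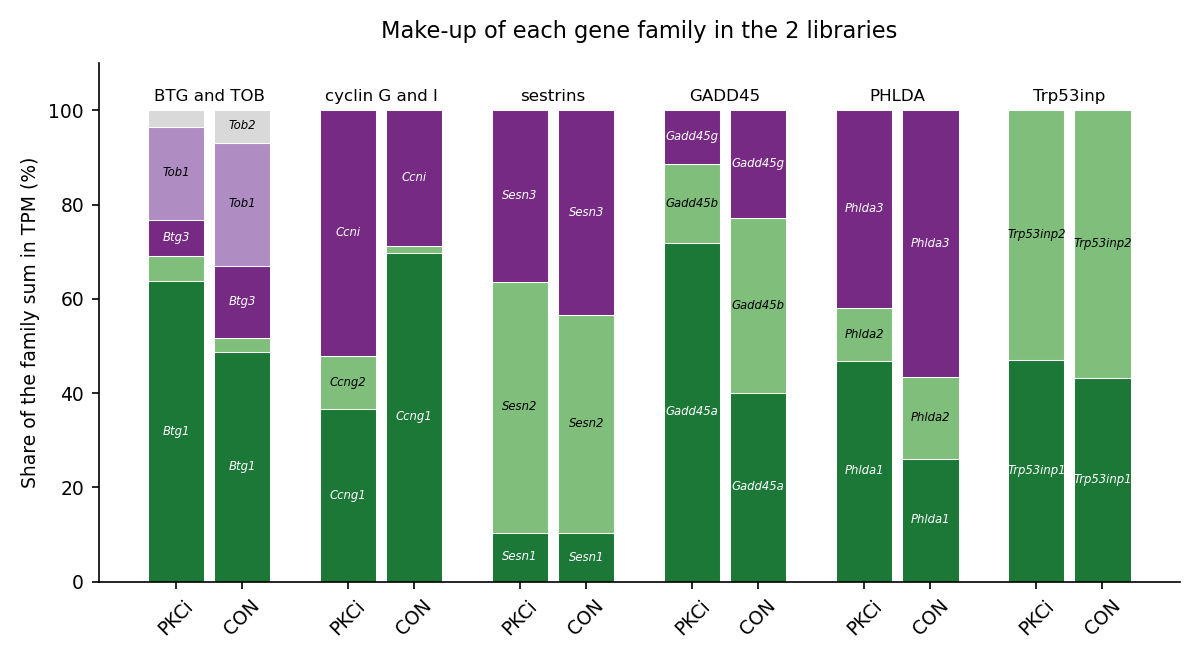
Share of each gene in the summed TPM of its family (percent, bars stacked to 100), with the PKCi library left of the CON library in each pair. Ccng1 held 36.5% of the cyclin bar with PKCi and 69.8% in CON, and Gadd45a held 71.8% of its bar with PKCi and 40.0% in CON, while Sesn1 held 10.4% of the sestrin bar with PKCi and 10.2% in CON.

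The remaining genes act downstream of p53 on growth signalling and on RNA. Sesn1 encodes a sestrin, a protein that restrains the growth kinase complex mTORC1. It had 190 counts with PKCi and 216 in CON, or 11.8 CPM with PKCi against 13.4 CPM in CON, and the fold of 0.881 had a 95% interval of 0.721 to 1.08. The interval held 1, so a difference was not detectable at this depth. Sesn2, the sestrin that senses leucine, was at 52.9 CPM with PKCi and 53 CPM in CON. Sesn3 was at 159 CPM with PKCi and 218 CPM in CON, 1.38-fold lower (95% interval 1.31 to 1.45). Sesn1 made up 10.4% of the summed sestrin TPM with PKCi and 10.2% in CON.

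Zmat3 is a zinc finger protein that binds RNA and alters the stability and splicing of its targets. It had 1408 counts with PKCi and 2363 in CON, or 87.6 CPM with PKCi against 147 CPM in CON, 1.68-fold lower (95% interval 1.57 to 1.79). Of its relatives, Zmat5, a component of the minor spliceosome, was 1.33-fold lower (95% interval 1.05 to 1.67), at 8.34 CPM with PKCi and 11.1 CPM in CON. Zmat1 was at 12.3 CPM with PKCi and 14.4 CPM in CON, and Zmat2 at 46.4 CPM with PKCi and 49.7 CPM in CON, each with an interval of the fold that held 1. Zmat4 had no counts.

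Phlda3 is a small protein made of a pleckstrin homology domain that competes with AKT for membrane lipids and so restrains it. It had 932 counts with PKCi and 1222 in CON, or 58.0 CPM with PKCi against 75.9 CPM in CON, 1.31-fold lower (95% interval 1.20 to 1.43). Phlda1, its longer relative, was at 91.5 CPM with PKCi and 49.3 CPM in CON, 1.85-fold higher (95% interval 1.70 to 2.02), and Phlda2, an imprinted gene known for limiting placental growth, was at 11.2 CPM with PKCi and 16.7 CPM in CON, 1.49-fold lower (95% interval 1.23 to 1.81). Per length, Phlda1 stood at 1.12 times the TPM of Phlda3 with PKCi and at 0.459 times in CON, so the order of the 2 genes differed between the libraries. The ratio was 2.43-fold higher with PKCi (95% counting interval 2.15 to 2.74).

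Sesn1 (ENSMUSG00000038332) is a plus-strand gene of chromosome 10, 41809935 to 41908424, Zmat3 (ENSMUSG00000027663) a minus-strand gene of chromosome 3, 32334792 to 32366014, and Phlda3 (ENSMUSG00000041801) a plus-strand gene of chromosome 1, 135766119 to 135769136. All 10 genes had the same start and end in the GENCODE M21 annotation, and the listed length of each equalled its summed exon length there. Sesn1 is the longest span of the set but overlaps only a single gene of the biotype TEC, 9930024M15Rik, with which it shares 0 exon bases.

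The order of the 10 genes by TPM differed between the libraries. In the PKCi library Mdm2 led with 408 TPM, followed by Trp53 at 204, Ccng1 at 169, Phlda3 at 121, Gadd45a at 77.4, Trp53inp1 at 67.3, Ccng2 at 52.5, Btg2 at 48.1, Zmat3 at 25 and Sesn1 at 9.70 TPM. In the CON library Ccng1 led with 376 TPM, followed by Mdm2 at 268, Trp53 at 191, Phlda3 at 158, Gadd45a at 41.8, Zmat3 at 41.7, Trp53inp1 at 15.1, Btg2 at 13, Sesn1 at 10.9 and Ccng2 at 7.54 TPM. Ccng2 was therefore the lowest of the set in CON and above Btg2, Zmat3 and Sesn1 with PKCi, and Ccng1 was first in CON and after Mdm2 and Trp53 with PKCi. With PKCi the counting intervals of the neighbours Ccng2 and Btg2 overlapped, and in CON those of Gadd45a and Zmat3, of Trp53inp1 and Btg2, and of Btg2 and Sesn1 did. The other neighbours were apart by more than counting error. These intervals do not cover the choice of length, which is the summed exon length of a gene and can differ from that of its expressed transcripts. Among the 12273 measured genes, Ccng2 lay at percentile 72.5 of TPM with PKCi and 24.5 in CON, and Trp53inp1 at percentile 78.2 with PKCi and 38.3 in CON.

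**Figure D4:**
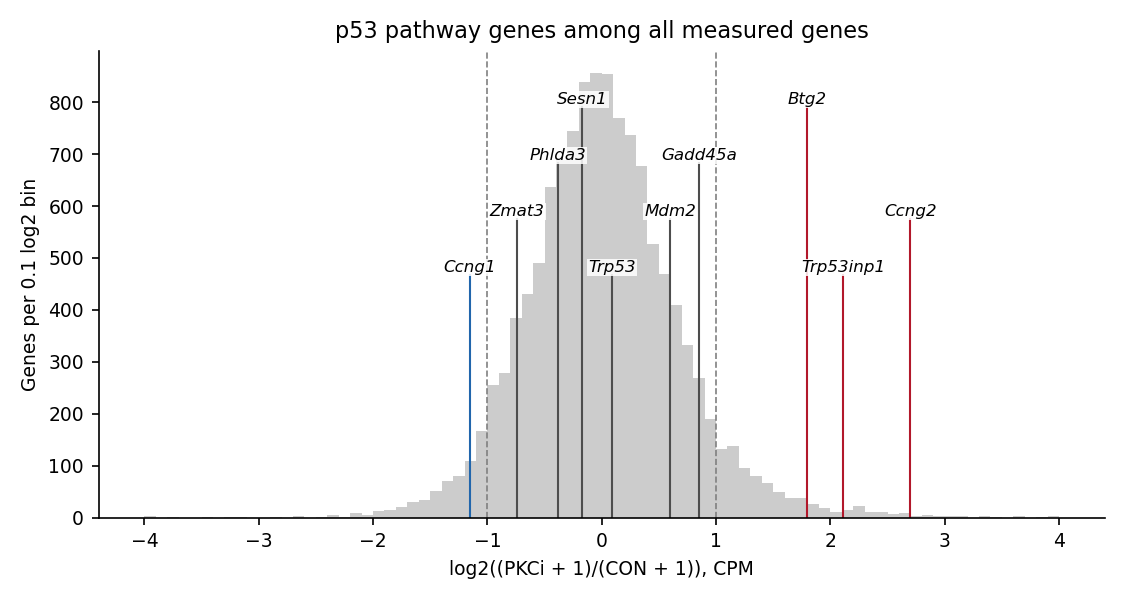
Histogram of log2((PKCi + 1)/(CON + 1)) in CPM for the 12273 measured genes (grey, bins of 0.1, end bins hold values beyond 4 in either direction), with each p53 pathway gene as a line at its own ratio and dashed lines at 2-fold. Ccng2, Trp53inp1 and Btg2 (red) stand in the right tail and Ccng1 (blue) just past the left line, with the other 6 genes in the body of the distribution.

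A separate list of p53 targets also held ratios on both sides of 0. Of 75 such genes listed by role, 67 were measured, and of these 8 passed 2-fold upwards and 7 downwards with PKCi. Ratios above 0 numbered 33 and ratios below it 34, and the median was −0.03 on the log2 scale. Both shares (11.9% higher and 10.4% lower) stood above the 6.53% and 5.13% of all measured genes. Of the 13 measured cell cycle targets, 2 passed 2-fold in each direction on the log2 scale with the pseudocount. Cdkn1a, which encodes the CDK inhibitor p21, was at 82.1 CPM with PKCi and 37.2 CPM in CON, 2.20-fold higher (95% interval 2.0 to 2.43). Sfn, the checkpoint protein 14-3-3 sigma, was at 12.5 CPM with PKCi and 4.35 CPM in CON, and Ier5, an immediate early gene, was 1.93-fold higher. Psrc1 and Ckap2, which encode spindle and microtubule proteins, were 2.38-fold and 2.23-fold lower with PKCi. Prdm1, a transcriptional repressor, had 17 counts with PKCi and 1 in CON (17.0-fold, 95% interval 2.67 to 711). With the pseudocount Prdm1 did not reach 2-fold.

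Of the 21 measured apoptosis targets, 2 passed 2-fold in each direction on the log2 scale with the pseudocount, and the median was 0.15. Over all measured genes, 6.53% passed it upwards and 5.13% downwards. Tnfrsf23, a decoy receptor of the TNF family, was at 165 CPM with PKCi and 42.8 CPM in CON, 3.86-fold higher (95% interval 3.54 to 4.20), and Bbc3, which encodes the BH3-only protein PUMA, was at 18.2 CPM with PKCi and 5.66 CPM in CON. Bax, the pore-forming effector, was at 67.4 CPM with PKCi and 87.8 CPM in CON, 1.30-fold lower (95% interval 1.20 to 1.41), and Pmaip1, which encodes NOXA, had no counts in either library. Rps27l, a ribosomal protein paralog, was at 60.5 CPM with PKCi and 150 CPM in CON, 2.47-fold lower (95% interval 2.30 to 2.67), although its reads may be shared with near copies. Siva1, a pro-apoptotic protein, was 2.15-fold lower. The mitophagy receptor gene Bnip3l was 1.91-fold higher, and the death receptor gene Fas had 22 counts with PKCi and 6 in CON (3.67-fold, 95% interval 1.44 to 11.1). With the pseudocount Fas did not reach 2-fold.

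On the log2 scale with the pseudocount of 1 CPM, all 10 measured DNA repair targets stayed within 2-fold, as did 10841 of all 12273 measured genes. Of the 10, 8 were below 0, as were 6233 of all measured genes, and their median was −0.29. Rad51c, a recombination gene, was at 7.40 CPM with PKCi and 15.4 CPM in CON, and its plain ratio was 2.08-fold lower (95% interval 1.67 to 2.61). Pcna, the sliding clamp of replication, was at 172 CPM with PKCi and 315 CPM in CON, and Polh, a translesion polymerase, at 48.0 CPM with PKCi and 83.6 CPM in CON. Rrm2b, the p53-induced subunit of ribonucleotide reductase, was 1.51-fold higher and Xpc, a damage sensor of excision repair, 1.42-fold higher, while Ddb2, its partner in the recognition of ultraviolet damage, was 1.60-fold lower (95% interval 1.11 to 2.32).

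Of the 23 measured metabolic and redox targets, 4 passed 2-fold upwards with PKCi and 3 downwards. The shares over all 12273 measured genes were 6.53% upwards and 5.13% downwards. The median of the 23 targets was 0.03 on the log2 scale. Sat1, which acetylates polyamines, was at 253 CPM with PKCi and 82.9 CPM in CON, 3.05-fold higher (95% interval 2.87 to 3.25). Ddit4, an inhibitor of mTORC1, was 2.54-fold higher (287 CPM with PKCi and 113 CPM in CON), and the autophagy kinase gene Ulk2 was 2.48-fold higher. Ephx1, an epoxide hydrolase, was at 22.5 CPM with PKCi and 89.0 CPM in CON, 3.95-fold lower (95% interval 3.52 to 4.45). Gls2, a glutaminase, was 2.95-fold lower (6.53 CPM with PKCi and 19.3 CPM in CON), and Dglucy, a D-glutamate cyclase, was 2.18-fold lower.

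Of the 38 measured genes that act on p53, 36 were within 2-fold on the log2 scale with the pseudocount, as were 10841 of all 12273 measured genes, and 1 passed 2-fold in each direction. Ratios above 0 numbered 15 and ratios below it 23, around a median of −0.10 on the log2 scale. Bcl6, a transcriptional repressor, was at 117 CPM with PKCi and 54.0 CPM in CON, 2.17-fold higher (95% interval 2.01 to 2.36). Gnl3, which encodes the nucleolar protein nucleostemin, was at 42.4 CPM with PKCi and 103 CPM in CON, 2.43-fold lower (95% interval 2.22 to 2.66). The nucleolar chaperone gene Npm1 was 1.77-fold lower and the checkpoint kinase gene Chek1 1.88-fold lower. The deubiquitinase gene Otud5 was 1.98-fold higher and Ep300, a histone acetyltransferase that serves as a cofactor of p53, 1.92-fold higher.

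**Figure D5:**
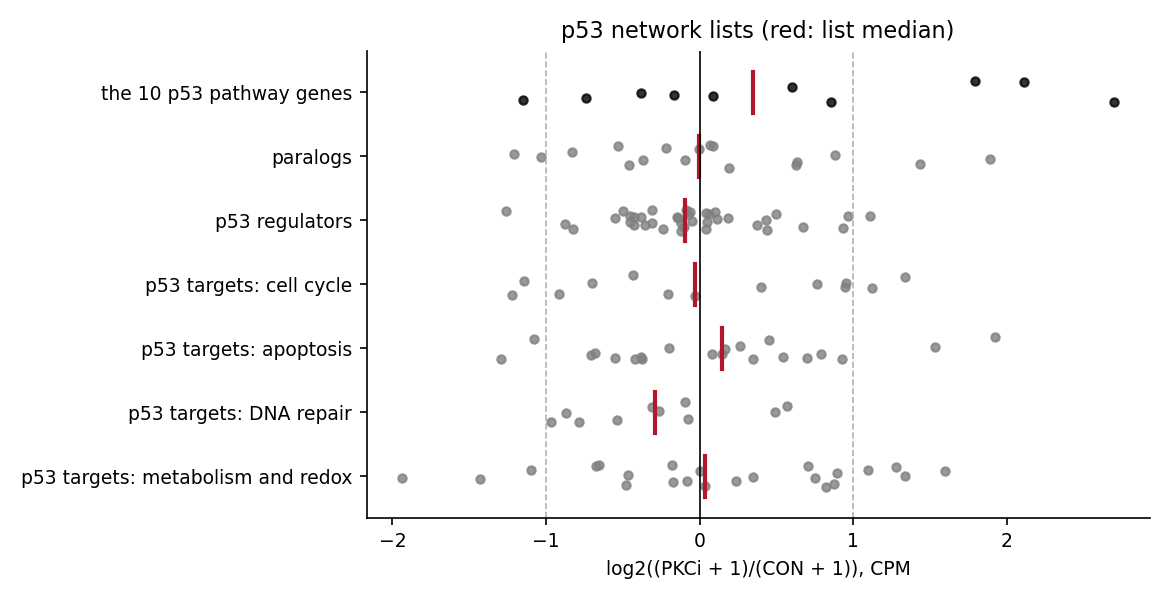
Each point is a measured gene, placed by log2((PKCi + 1)/(CON + 1)) in CPM, for the 10 p53 pathway genes (black), their paralogs and the p53 regulators and targets (grey), with the median of each list in red, dashed lines at 2-fold and random vertical spread. On this scale the target lists reach past 2-fold on both sides except for DNA repair, a list of 10 measured genes. Of the regulators 36 of 38 lie within 2-fold, as do 10841 of all 12273 measured genes.

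Among the 17 measured paralogs of the 10 genes, Trp53inp2 and Btg1 passed 2-fold upwards and Trp63 and Gadd45b downwards. That is 11.8% in each direction, against 6.53% upwards and 5.13% downwards over all measured genes. The paralogs had 8 ratios above 0, 9 below it and a median of 0.00 on the log2 scale.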

How the data were processed

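Messenger RNA was sequenced from 1 PKCi-treated and 1 untreated culture of CMT167R cells. Groups follow the labels' treatment field. The submitters' processing notes name HISAT2 2.0.5 and, as builds, GRCm38 and mm10. The counting program, strand setting and annotation release are not stated in the labels or the file header. The table deposited by the authors holds whole-number counts per gene, although its name speaks of FPKM. All values are whole and the columns sum to 16071153 (PKCi) and 16090186 (CON), so they were used as raw counts. No per-sample column was left without a sample (0 columns).

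Counts were scaled to a library total of 1000000 (CPM), genes that reached 1 CPM in 1 or both libraries were kept, and a pseudocount of 1 CPM was used on the log2 scale. Folds in the text are plain CPM ratios with an exact conditional binomial (Clopper-Pearson) 95% interval. Intervals of a change in the ratio of 2 genes use the normal approximation on the log scale. Levels of single genes have exact Poisson intervals, and for a count of 0 the limit is 3 counts of the total. All of these cover counting error only, as PCR duplicates cannot be told from separate molecules here. TPM was computed from the counts and the listed gene lengths. Alternatives were TMM scaling (edgeR 4.0.16), median-of-ratios and upper-quartile scaling, a total without mitochondrial genes, TPM, other pseudocounts and other filters. The script was tested on simulated data.

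The members and the gene lists were chosen with earlier results of these data known. Named were the 10 genes, their paralogs, Cdkn1a, Mdm4, Cdkn2a, Bax, Bbc3 and Pmaip1, and up to 6 genes of the largest absolute log2 ratio in each other list. No genes of like pattern were named, because 2 libraries give no measure of likeness. Promoter sequences are from RefSeq (GRCm38.p6), and motifs were searched in the 300-base windows as exact matches, with no mismatch allowed. GENCODE M21 held 54495 of the table's gene identifiers, 98.3% of them with the same start and end.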

Additional observations from a re-analysis of the deposited data

How the results depend on the processing

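With 1 library per group no replicate could be left out, and differences between cultures are unknown. No paired analysis was possible because each group holds a single library. Under all 9 alternatives Ccng2, Trp53inp1 and Btg2 stayed at least 2-fold higher, Ccng1 at least 2-fold lower and the other 6 genes within 2-fold, and under the 4 scalings every fold of the 10 genes stayed inside its counting interval. A change of filter cannot alter a gene's own ratio, so for these 10 genes only the scalings, TPM and the pseudocounts could have changed the outcome. With TPM, 14174 genes reached 1 TPM and entered the count, so both the scale and the genes differed from the 12273 at 1 CPM, and 1398 of them were at least 2-fold higher and 985 lower. A pseudocount of 5 counted 449 of the 12273 genes as higher and 324 as lower. That pseudocount left 0 paralogs at least 2-fold lower, 1 cell cycle target higher and 1 apoptosis target lower, and a pseudocount of 0.1 put 1 DNA repair target at least 2-fold lower. By construction a larger pseudocount shrinks low genes and a smaller one does the reverse. The other 248 values moved by at most 1.5 times for counts, by less than 0.1 for a median log2 ratio, or by no more than their counting interval.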
